A study of Rattus norvegicus with 10 samples.

Results

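The Slc25 family holds the carrier proteins that move metabolites, nucleotides, coenzymes and iron across the inner mitochondrial membrane. Members were the genes whose platform symbol begins with Slc25a, taken from probe sets (groups of array probes that report 1 transcript) paired with exactly 1 gene symbol. Each gene was represented by its probe set with the highest mean signal over all 10 arrays. This gave 40 genes, from 58 probe sets, of 14217 genes tested. In the livers of rats fed HMB, Slc25a12, the aspartate/glutamate carrier called aralar, fell to 0.702-fold of the control signal. It passed the test, but kept that call in only 10 of 22 other settings (processing, threshold or animals used). The other 39 members did not pass the test.

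Liver RNA came from 10 Harlan Sprague Dawley rats, with 1 array per animal. HMB (2-hydroxy-4-methoxybenzophenone, or oxybenzone) is an ultraviolet filter used in sunscreens, and the 5 HMB rats were fed it at 10000 ppm in the diet for 13 weeks. The 5 control rats received 0 ppm, and all livers were held in RNAlater, refrigerated overnight and then frozen. HMB 1 has a title and chemical label of HMB but a dose label of 0 ppm. It was kept with the HMB rats, and values with it moved to the controls are given for Slc25a12, which passed the test, and for Slc25a1 and Slc25a25. The labels state no age, sex or date. Cages held 5 rats, so each group may have been a single cage, and then cage and diet cannot be told apart. The p-values treat the animals as independent, and the number of arrays limits the precision of each value.

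A typical carrier of this family is a small protein that works as an exchanger, taking 1 metabolite in as it lets another out. In hepatocytes such carriers link cytosol and mitochondrion in ATP export, fatty acid oxidation, gluconeogenesis, fatty acid and sterol synthesis, and the urea cycle. Aralar (Slc25a12) and citrin (Slc25a13) are a pair of isoforms with the same task. They send aspartate out of the mitochondrion in exchange for glutamate, a step of the malate-aspartate shuttle. Citrin is known as the main isoform of adult liver, and aralar as that of brain and skeletal muscle.

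The 250 bases before the annotated start of this isoform pair are shown because Slc25a12 passed the test and Slc25a13 did not, a contrast that was itself not tested. It depends on the probe set chosen for Slc25a13. A second one differed by -0.45 (log2, HMB minus control), beside -0.51 for Slc25a12 (limma adjusted p = 0.0727 and 0.0327 over probe sets). The bases are RefSeq sequences of build GRCr8, written 5′ to 3′ on the gene's own strand, and capitals mark motif matches. Slc25a12 lies on the minus strand with these bases at chr3:76599537-76599786, and Slc25a13 on the minus strand at chr4:35328361-35328610.
Slc25a12: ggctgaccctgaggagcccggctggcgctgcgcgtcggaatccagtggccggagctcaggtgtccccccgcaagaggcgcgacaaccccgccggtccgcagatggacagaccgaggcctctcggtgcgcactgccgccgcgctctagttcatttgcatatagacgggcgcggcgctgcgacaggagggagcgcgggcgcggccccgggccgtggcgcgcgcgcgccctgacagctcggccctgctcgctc
Slc25a13: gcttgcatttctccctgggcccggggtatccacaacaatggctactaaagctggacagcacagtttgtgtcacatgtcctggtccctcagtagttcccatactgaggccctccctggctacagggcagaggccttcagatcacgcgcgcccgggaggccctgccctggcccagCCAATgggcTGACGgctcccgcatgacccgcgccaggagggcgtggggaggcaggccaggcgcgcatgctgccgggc

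Motifs were searched on both strands. They were the cyclic AMP response element TGACGTCA, its half-site TGACG, which lies inside it, the GC box GGGCGG, the CCAAT box and the E-box CACGTG. The Slc25a12 window held none of these letters. The Slc25a13 window held 1 CCAAT box and 1 half-site TGACG. Promoter sequences matched for 34 of the 40 members. Of all 33469 promoters of the same length, 34% held a CCAAT box, against 19 of the 34 members, or 55.9%. A GC box stood in 30.5% of all promoters and in 21 of the 34 members, or 61.8%. The half-site TGACG stood in 18.2% of all promoters and in 8 members, the whole element in 1.59% and in 2, and the E-box in 5.59% and in 2. The 33469 promoters were not limited to the 14217 genes tested, and only the members were cut to 1 promoter per gene. The shares thus come from unlike sets, and a gap between them cannot be read as a trait of the family. These matches are a description of the letters and were not tested.

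Among the 14217 genes, 244 passed (limma, Benjamini-Hochberg adjusted p under 0.05), which is 1.72% of those tested, 0.76% higher and 0.957% lower in HMB. Of the 40 members, 0 rose and 1 fell, or 2.5%. Values of the HMB and control rats did not overlap in 1 member, which was lower in HMB, or 2.5%, against 6.12% of all genes, 2.64% higher and 3.48% lower. An unadjusted p under 0.05 was reached by 6 members, or 15%, against 24.9% of all genes. Of these, Slc25a41 and Slc25a35 were higher in HMB, as were 11.5% of all genes, and Slc25a12, Slc25a14, Slc25a30 and Slc25a44 lower, as were 13.4%. The median log2 difference, HMB minus control, was -0.03 over the members and -0.02 over all genes, with 17 members above 0 and 23 below. At the chosen probe set of 35 of the 40 members the 95% interval of the difference stayed within 1.5-fold in both directions. The 5 whose intervals went beyond it were Slc25a12, Slc25a14, Slc25a25, Slc25a30 and Slc25a51l1. Of the 35, Slc25a10, Slc25a13, Slc25a15 and Slc25a46 each had another probe set whose interval went beyond it. Those intervals reached down to -0.81, -0.72, -0.94 and -0.80, so larger falls are not excluded for these genes.

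**Figure D1:**
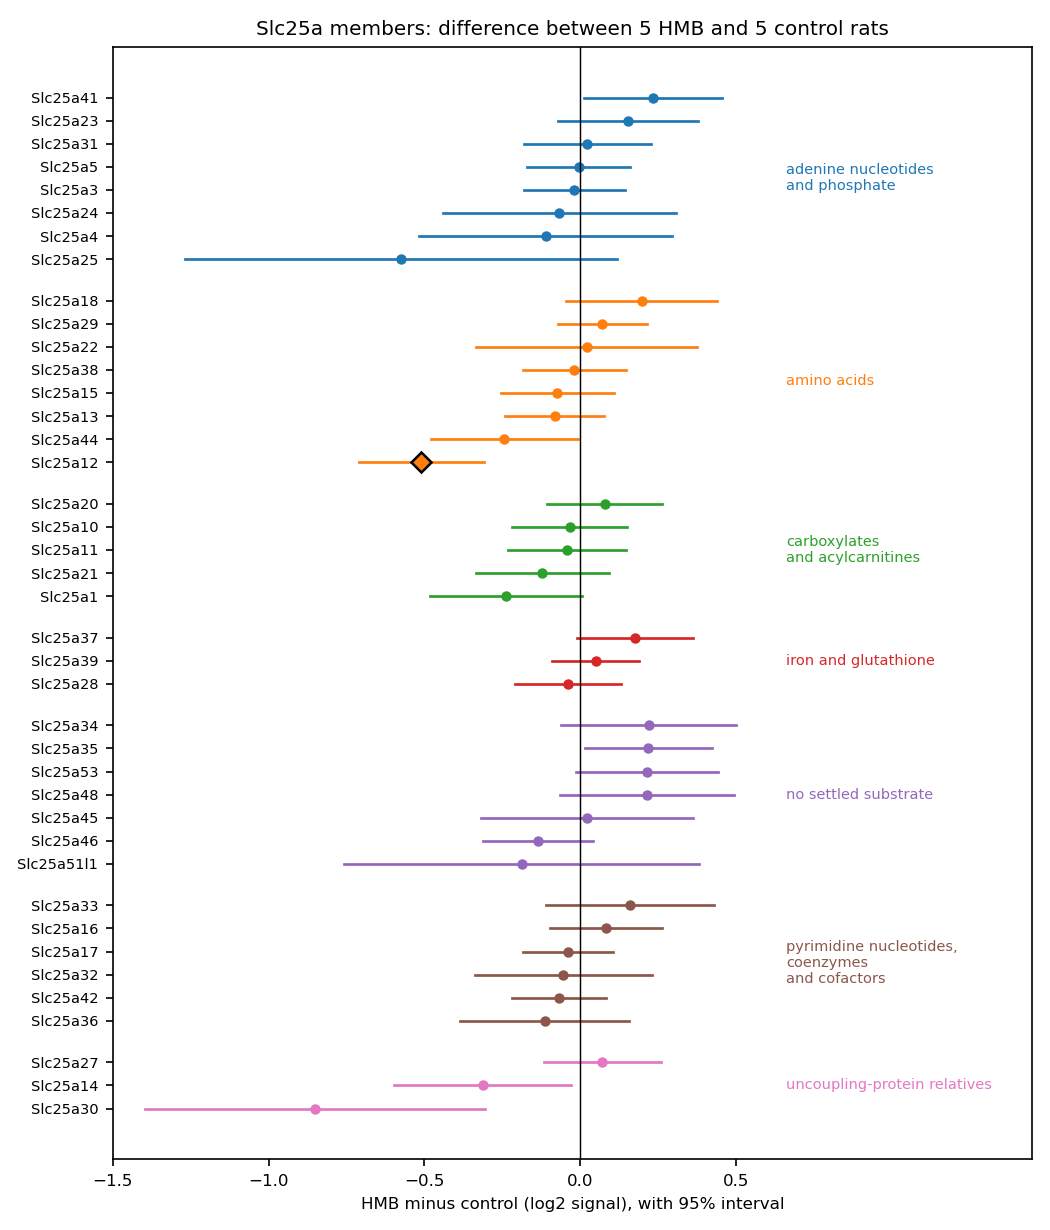
Difference between 5 HMB and 5 control rats for each of the 40 members (x axis, log2 signal, HMB minus control; y axis, genes by substrate carried), with points for the limma estimate and lines for its 95% interval. The diamond marks Slc25a12 at -0.51, the member that passed the test, and the point farthest from 0 is Slc25a30 at -0.85 with the interval from -1.40 to -0.31.

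Carriers of amino acids numbered 8, of which 1 fell and 7 did not pass. Slc25a12 had log2 signals of 5.99, 5.82, 5.97, 5.997 and 5.90 in control 1 to control 5. In HMB 1 to HMB 5 it had 5.69, 5.45, 5.16, 5.38 and 5.45. All 5 HMB rats lay below all 5 controls, with HMB 1, the rat with the conflicting dose label, nearest to them. The fall was 0.51 ± 0.09 on the log2 scale (standard error, 5 animals a group, adjusted p = 0.0296 over all genes, limma), with a 95% interval from -0.71 to -0.31. The gene has 1 probe set on the array, which also passed in the fit over all 31042 probe sets (limma adjusted p = 0.0327), where 1.7% passed.

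With HMB 1 counted as a control the Slc25a12 difference was -0.53 (limma adjusted p = 0.0436), and without HMB 1 it was -0.58 (adjusted p = 0.0244). The call was lost without control 2 (adjusted p = 0.0724), control 3 (0.0689), control 4 (0.0738), control 5 (0.0627), HMB 2 (0.0587), HMB 4 (0.0745) or HMB 5 (0.0755), with log2 differences from -0.54 to -0.49. It was lost as well after cyclic loess normalization, at -0.44 (adjusted p = 0.0566). HMB 3, HMB 4 and HMB 5, whose signals of poly-A transcripts added to the RNA lay above those of all controls, also lay below HMB 1 and HMB 2 in Slc25a12, HMB 5 at 5.445 only just below HMB 2 at 5.446. Fitted with that poly-A measure the difference was -0.39 (adjusted p = 0.246). Without HMB 3 to HMB 5 it was -0.37 (adjusted p = 0.291).

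Citrin, Slc25a13, has a pair of probe sets. The chosen one had 11.81, 11.72, 11.88, 11.75 and 11.82 in controls and 11.53, 11.74, 11.71, 11.84 and 11.75 in HMB. These groups overlapped, and the difference was -0.08 with an interval from -0.24 to 0.08 (limma adjusted p = 0.494). The second had 8.75, 8.81, 8.88, 8.72 and 8.87 in controls and 8.69, 8.65, 8.03, 8.23 and 8.19 in HMB. There all HMB rats lay below all controls, with HMB 1 nearest to them, and the difference was -0.45 ± 0.12 (standard error, 5 animals a group, adjusted p = 0.0727 over probe sets, limma). That probe set was chosen once its values were known. HMB 3 to HMB 5 again lay below HMB 1 and HMB 2 in it.

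**Figure D2:**
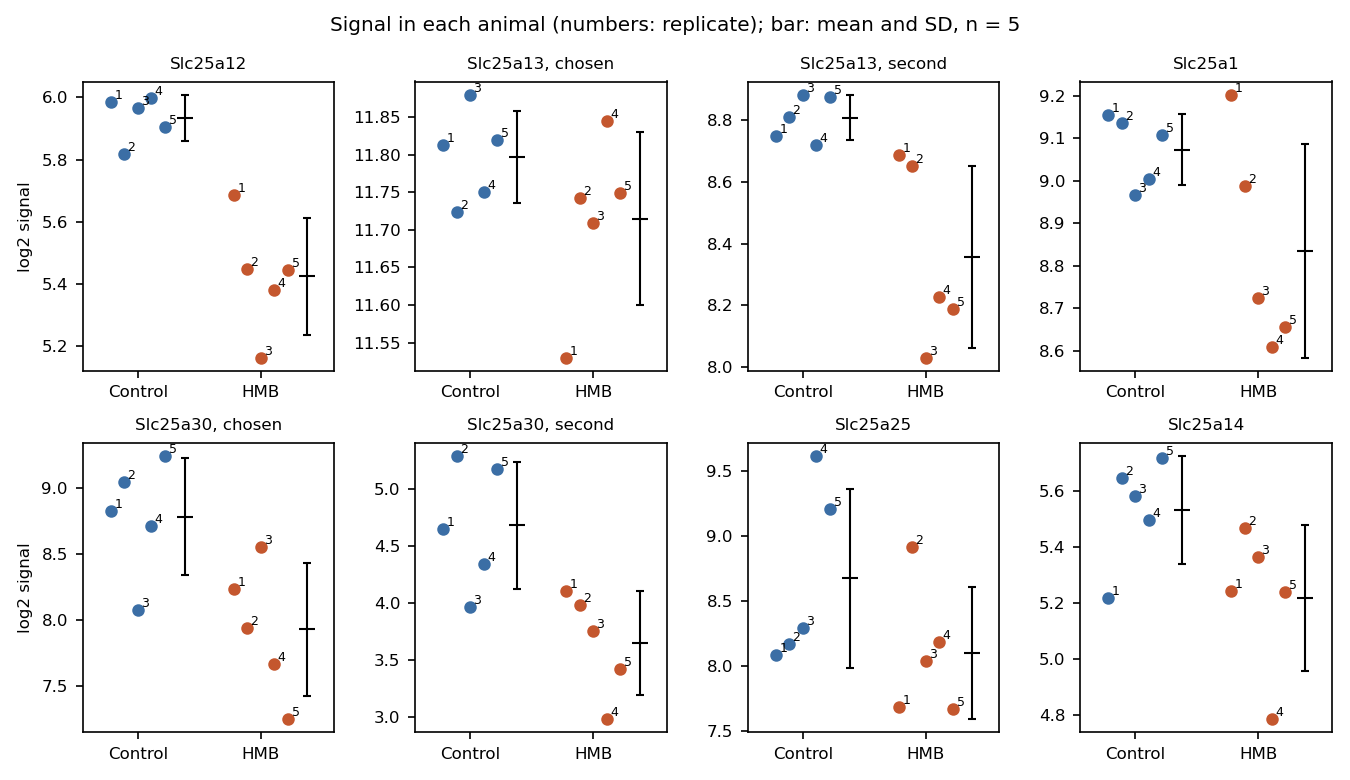
Log2 signal (y axis) of each animal for 8 probe sets of 6 members, with controls in blue, HMB in orange, the replicate number beside each point, and a bar for the mean and SD of the 5 animals. In Slc25a12 and in the second probe set of Slc25a13 all HMB points lie below all controls, while in the chosen probe set of Slc25a13 the groups overlap.

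The other amino acid carriers had values on both sides of 0. Slc25a15, the ornithine carrier of the urea cycle, was at 11.23 ± 0.09 (SD, n = 5) in controls and 11.16 ± 0.14 in HMB, a difference of -0.07 with an interval from -0.26 to 0.11. Of its 6 probe sets, 4 differed by -0.36 to -0.07 and 2 by 0.01 and 0.16. The probe set at 0.16 had a low control signal of 3.01, and the interval of that at -0.36 ran from -0.94 to 0.23. Slc25a44, a carrier of branched-chain amino acids, differed by -0.24 (limma adjusted p = 0.188), and its second probe set by 0.11. The glutamate carriers Slc25a18 and Slc25a22 differed by 0.20 and 0.02, Slc25a29, a carrier of basic amino acids, by 0.07 and Slc25a38, the glycine carrier that serves heme synthesis, by -0.02.

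Carriers of carboxylates and acylcarnitines numbered 5, with 0 called and a median log2 difference of -0.04. Slc25a1 exports citrate for fatty acid and sterol synthesis. Its signals were 9.15, 9.14, 8.97, 9.004 and 9.11 in controls and 9.20, 8.99, 8.72, 8.61 and 8.66 in HMB. HMB 1 and HMB 2 lay within or above the range of the controls, and HMB 3 to HMB 5 lay below all of them. The difference was -0.24 ± 0.11 (standard error, 5 animals a group, adjusted p = 0.210, limma). It was -0.35 with HMB 1 counted as a control (limma adjusted p = 0.0639), -0.41 without HMB 1 and HMB 2 (adjusted p = 0.0345), 0.021 without HMB 3 to HMB 5 and 0.0035 in the fit that includes the poly-A measure.

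The poly-A signal minus that of the hybridisation controls was -1.54, -1.78 and -1.47 in HMB 3 to HMB 5, against -1.92 and -1.96 in HMB 1 and HMB 2 and -2.19 to -1.90 in controls. Signal at the 3′ end of Gapdh minus that at its 5′ end, a sign of RNA integrity, was 1.97, 2.09 and 1.90 in HMB 3 to HMB 5 and 1.31 and 1.378 in HMB 1 and HMB 2, against 1.383 to 1.77 in controls. By this measure HMB 3 to HMB 5 lay above all controls and HMB 1 and HMB 2 below them, HMB 2 only just. HMB 3 to HMB 5 all lay below HMB 1 and HMB 2 in 9 members and all above in 4. The same counts over all genes were not made, so no trait of the family can be read from these. The part of these array measures in the differences was not tested beyond the covariate and left-out values given here.

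Slc25a20 brings acylcarnitines into the mitochondrion for beta-oxidation. Its signals were 9.08, 9.23, 9.17, 8.97 and 9.04 in controls and 9.21, 9.35, 9.01, 9.05 and 9.25 in HMB. The groups overlapped, with HMB 2 and HMB 5 above all controls and control 4 below all HMB rats. The difference of 0.08 had an interval from -0.11 to 0.26 (limma adjusted p = 0.575). Slc25a10, the dicarboxylate carrier, differed by -0.03, Slc25a11, which exchanges 2-oxoglutarate and malate, by -0.04, and Slc25a21, a carrier of 2-oxoadipate, by -0.12. For the chosen probe sets of Slc25a20, Slc25a10 and Slc25a11 the intervals stayed within 1.2-fold in both directions, from -0.23 to 0.26. The second probe set of Slc25a10, mentioned with its values known, was at 6.65 in controls and 6.20 in HMB. Its difference was -0.45 with an interval from -0.81 to -0.08 (limma adjusted p = 0.141 over probe sets), and its groups overlapped, control 1 being the lowest control at 6.02.

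Carriers of adenine nucleotides and phosphate numbered 8, with 0 called and a median of -0.01. Slc25a5, the ADP/ATP exchanger of most tissues, was at 11.71 ± 0.06 (SD, n = 5) in controls and at 11.71 ± 0.13 in HMB. The interval of the difference ran from -0.17 to 0.16. Slc25a3, which imports the phosphate for ATP synthesis, was at 11.10 ± 0.07 and 11.08 ± 0.12, with an interval from -0.18 to 0.14. Probes for Slc25a5 and Slc25a3 may also read the pseudogenes that RefSeq lists for them, which the array does not resolve.

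Slc25a25, a carrier of ATP-magnesium and phosphate that calcium regulates, had the widest spread among controls of the 40 members, with an SD of 0.69. Its signals were 8.09, 8.17, 8.29, 9.62 and 9.21 in controls and 7.68, 8.92, 8.04, 8.19 and 7.67 in HMB. Control 4, control 5 and HMB 2 stood high, and the groups overlapped. The difference was -0.58 ± 0.32 (standard error, 5 animals a group, adjusted p = 0.277, limma), with an interval from -1.27 to 0.12. It was -0.34 without control 4, -0.78 without HMB 2 and -0.31 with HMB 1 counted as a control. Its relatives Slc25a23, Slc25a24 and Slc25a41 differed by 0.15, -0.07 and 0.23.

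Slc25a4 (the ADP/ATP exchanger typical of muscle), Slc25a24 and Slc25a36 were highest in control 4 and lowest in control 5 among the controls. They were picked for this order once the values were known, so sharing it with the marker means below carries no weight. Among the controls, 9 members were highest in control 4 and 6 were lowest in control 5. The share of all genes with these extremes was not computed. Slc25a4 was at 7.02 in control 4 and 5.82 in control 5, with the other controls from 6.22 to 6.49. Slc25a24 was at 5.80 in control 4 and 4.73 in control 5, with the others from 5.12 to 5.30. Slc25a36 was at 6.01 and 5.36, with the others at 5.51. The mean of 7 macrophage markers was 8.36 in control 4 and 6.57 in control 5, the highest and lowest of the controls. That of 6 endothelial markers was likewise 7.97 and 6.77, and that of 8 stellate cell and fibroblast markers 6.24 and 5.71. The other animals did not follow the same order, and HMB 3 had the highest macrophage mean of the HMB rats, 7.93, with Slc25a4 at 6.10. The part of these markers in the values was not tested. In bulk tissue a different number of cells of a type and a different amount of RNA per cell cannot be told apart. Between the groups Slc25a4 differed by -0.11 (limma adjusted p = 0.738), and by -0.25 to 0.05 with 1 animal left out, the latter without control 4.

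Relatives of the uncoupling proteins numbered 3, with 0 called. Slc25a30 had 8.83, 9.05, 8.08, 8.71 and 9.24 in controls and 8.23, 7.93, 8.55, 7.67 and 7.25 in HMB. Control 3 lay within the HMB range, HMB 3 stood nearest to the controls, and the groups overlapped. The difference of -0.85 ± 0.25 (standard error, 5 animals a group, adjusted p = 0.0840, limma) was the farthest from 0 of the 40 members, with an interval from -1.40 to -0.31. Its second probe set had 4.65, 5.28, 3.96, 4.34 and 5.17 in controls and 4.10, 3.99, 3.76, 2.98 and 3.42 in HMB, a difference of -1.03 ± 0.26 (limma adjusted p = 0.0611 over probe sets). Control 3 was the lowest control at both probe sets.

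Slc25a14 had 5.22, 5.64, 5.58, 5.50 and 5.71 in controls and 5.24, 5.47, 5.36, 4.78 and 5.24 in HMB. Control 1 lay below 4 of the 5 HMB rats, and the difference was -0.31 ± 0.13 (standard error, 5 animals a group, adjusted p = 0.165, limma). Slc25a27 differed by 0.07 from a signal of 2.73 in controls. No detection calls accompany the values, so signals this low may be background.

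**Figure D3:**
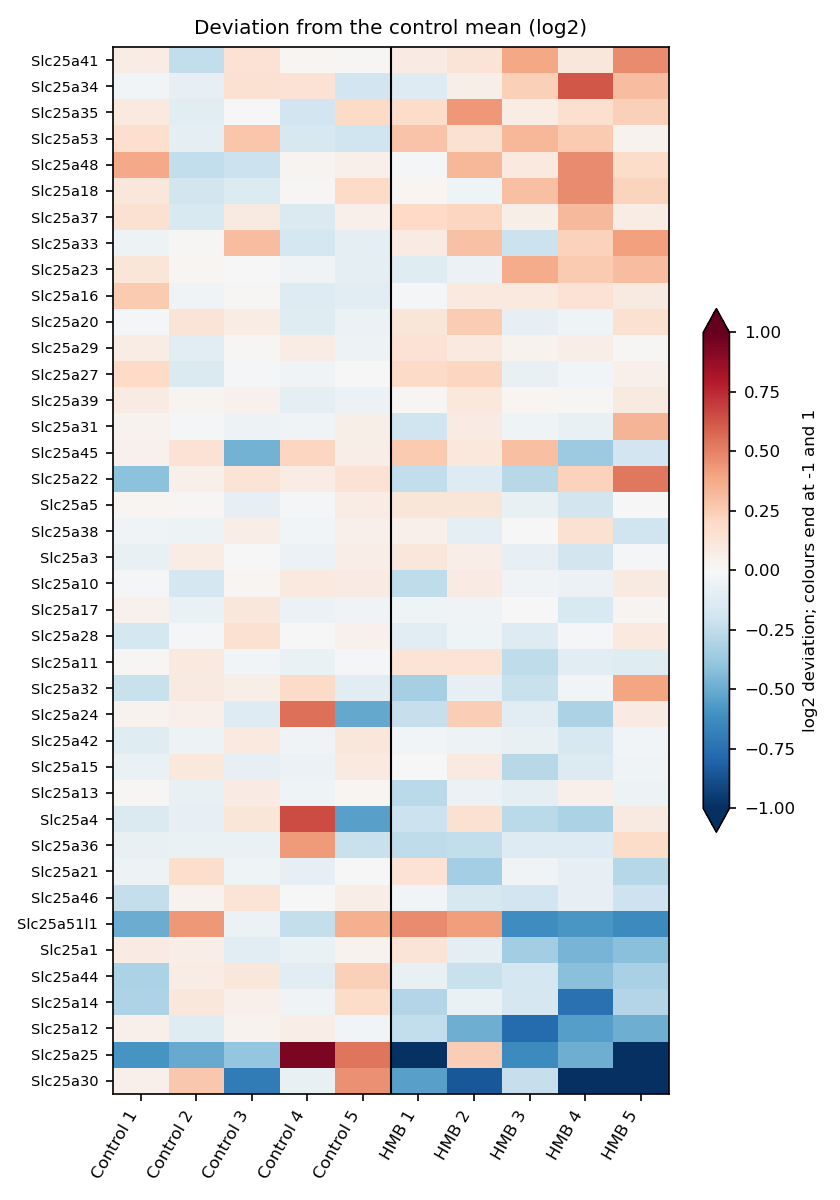
Deviation of each animal (columns) from the mean of the 5 controls for each of the 40 members (rows, ordered by the HMB minus control difference), on a log2 colour scale that ends at -1 and 1. Slc25a30 and Slc25a12, near the bottom, are below the control mean in all 5 HMB rats, and control 4 stands high in Slc25a25, Slc25a4 and Slc25a24.

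Carriers of pyrimidine nucleotides, coenzymes and cofactors numbered 6, with 0 called and differences from -0.11 to 0.16. Slc25a33, a pyrimidine nucleotide carrier, had the difference farthest from 0, with 5.88, 5.94, 6.24, 5.75 and 5.84 in controls and 6.01, 6.23, 5.71, 6.16 and 6.34 in HMB. The groups overlapped (difference 0.16, limma adjusted p = 0.432). Slc25a42 and Slc25a16, both carriers linked to coenzyme A, differed by -0.07 and 0.08. Slc25a17, the peroxisomal member of the family, was at 8.22 ± 0.08 (SD, n = 5) in controls and at 8.18 ± 0.07 in HMB. The interval of the difference ran from -0.18 to 0.11. Slc25a32, a carrier of FAD and folate, differed by -0.05, and Slc25a36, which carries pyrimidine nucleotides, by -0.11.

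Carriers of iron and glutathione numbered 3, with 0 called. Slc25a37, mitoferrin-1, which brings in iron for heme and is most abundant in erythroid cells, had 6.37, 6.07, 6.31, 6.07 and 6.27 in controls. In HMB it had 6.42, 6.43, 6.28, 6.54 and 6.29, and the groups overlapped. The difference was 0.17 ± 0.09 (standard error, 5 animals a group, adjusted p = 0.224, limma). Of 5 erythroid markers measured, 4 lay above 0 and 0 were called, among them Alas2 at 0.40 (limma adjusted p = 0.150) and Hbb at 0.30 (limma adjusted p = 0.392). The one below 0 was Tfrc, the transferrin receptor, which was also the farthest from 0 of these markers, at -0.43 (limma adjusted p = 0.0788). The mean of the list ran from 5.76 to 6.20 in controls and from 5.90 to 6.41 in HMB, and its part in the Slc25a37 value was not tested. Slc25a28, mitoferrin-2, the form of other tissues, differed by -0.04, and Slc25a39, a glutathione carrier, by 0.05.

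The 7 members without a substrate assigned here had 0 called and a median of 0.21. Slc25a34 had 3.75, 3.70, 3.93, 3.93 and 3.59 in controls and 3.65, 3.84, 4.02, 4.40 and 4.09 in HMB, a difference of 0.22 (limma adjusted p = 0.303). HMB 3 to HMB 5 lay above all controls and HMB 1 and HMB 2 within their range. Slc25a35 differed by 0.22, Slc25a53 by 0.21, and Slc25a48 by 0.21 and by 0.29 at its second probe set. In controls Slc25a35 and Slc25a53 were at 3.14 and 2.96, low signals that may be background. Slc25a46, a protein of the outer membrane, differed by -0.13, Slc25a45 by 0.02 and Slc25a51l1 by -0.19. The second probe set of Slc25a46 differed by -0.33, with an interval from -0.80 to 0.15. In it HMB 3 to HMB 5 were at 5.42, 5.47 and 5.45, and HMB 1 and HMB 2 at 6.40 and 6.42.

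Differences moved with signal level over all genes. Cut by mean signal into 4 sets of nearly equal number, the genes of the lowest set had a higher median than the others. There the median log2 difference of all genes was 0.11, and the 6 members of that set were all above 0, with a median of 0.21. These members were Slc25a18, Slc25a27, Slc25a31, Slc25a35, Slc25a41 and Slc25a53. Their control means ran from 2.73 to 3.40, signals that may be background. In the next set all genes had a median of 0.03 and the 9 members, with Slc25a12 among them, one of -0.11. In the set above that the medians were -0.12 for all genes and -0.02 for 9 members, and in the highest -0.07 and -0.04 for 16 members. After cyclic loess the median was 0.04 over the members and 0.01 over all genes, so the sign of the members' median turned with the scaling.

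**Figure D4:**
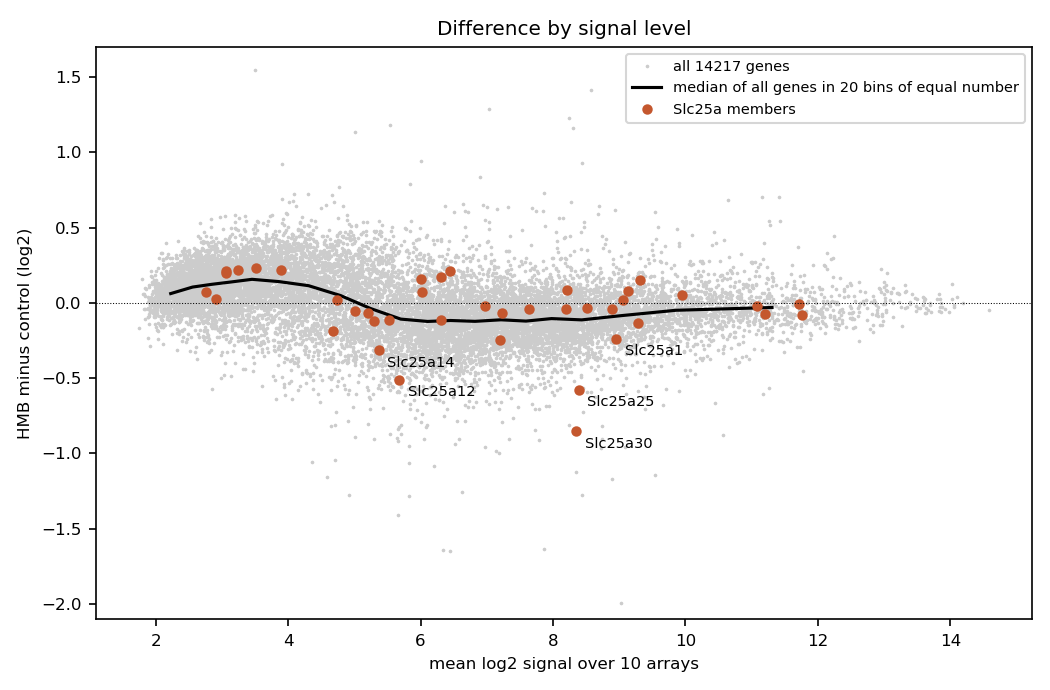
HMB minus control difference (y axis, log2) against mean log2 signal over 10 arrays (x axis) for all 14217 genes in grey and the 40 members in orange, with a black line for the median of all genes in 20 bins. The line lies above 0 at low signals and below 0 at middle signals, and Slc25a12, Slc25a14, Slc25a25 and Slc25a30 lie below it.

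Partner genes of the carriers were taken from fixed lists, and 0 of their 83 members passed (limma), with 13, or 15.7%, at an unadjusted p under 0.05, 6 higher and 7 lower in HMB, against 24.9% of all genes. The 5 family members under other symbols (Ucp1, Ucp2, Ucp3, Mtch1 and Mtch2) differed by -0.05 to 0.20, the latter for Ucp3. Of 17 other transporters of the inner membrane, 8 were above 0, with a median of -0.02 and the difference farthest from 0 at -0.29 for Mrs2, a magnesium channel. Of 12 genes of carrier import and outer membrane pores, 10 were below 0, with a median of -0.06. Timm9, a chaperone that guides carriers to the inner membrane, was at 8.47 ± 0.26 (SD, n = 5) and 8.15 ± 0.09, a difference of -0.32 (limma adjusted p = 0.121).

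Among 10 genes listed with the acylcarnitine carrier, 7 were above 0, 3 were below and the median was 0.14. An unadjusted p under 0.05 (limma) was reached by 4, or 40%, all higher in HMB. Of all genes 24.9% reached it in either direction and 11.5% higher in HMB. The list was chosen with earlier results known, and its share was not tested. The lowest adjusted p of this list was 0.109 (limma), for Slc22a5 at 0.41. Slc22a5, which is among those 4, is not an enzyme but a carnitine transporter of the cell membrane. Cpt1a, which makes the acylcarnitines that Slc25a20 carries, differed by 0.42 ± 0.18 (standard error, 5 animals a group, adjusted p = 0.182, limma), and Cpt2, which takes them back to acyl-CoA, by -0.01. Among 11 enzymes at the carboxylate and aspartate/glutamate carriers the median was -0.03. Me1, the cytosolic malic enzyme, differed by 0.32 (limma adjusted p = 0.192). The malate-aspartate shuttle enzymes Got1, Got2, Mdh1 and Mdh2, which work with Slc25a12 and Slc25a13, differed by -0.13, -0.03, -0.01 and 0.04. Citrate synthase, Cs, which makes the citrate that Slc25a1 exports, differed by -0.23 (limma adjusted p = 0.0988).

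The 8 enzymes at the ornithine carriers, those of the urea cycle and its branches, ran from -0.08 to 0.11, the latter for Otc. The 11 at the coenzyme carriers had a median of -0.02, with Pank2, a pantothenate kinase, at -0.24 (limma adjusted p = 0.0944). The 9 at the iron and glycine carriers had a median of -0.10, with Gldc, a glycine cleavage enzyme, at -0.30 (limma adjusted p = 0.376).

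The tissue label was checked against markers. The mean of 7 hepatocyte markers ran from 13.39 to 13.54 in controls and from 13.32 to 13.43 in HMB. In the lists for macrophages, stellate cells, endothelium, cholangiocytes, erythroid cells, lymphocytes, fat and pancreas the group ranges overlapped. Of 62 markers in all lists 0 were called (limma), with 11, or 17.7%, at an unadjusted p under 0.05, against 24.9% of all genes. The mean of 6 skeletal muscle markers ran from 2.42 to 2.61 in controls and from 2.66 to 2.75 in HMB, with all 6 differences above 0. All 6 belong to the lowest set of signal level, in which 78.8% of all genes lay above 0.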

How the data were processed

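The values are log2 signals, deposited by the authors, for 31099 probe sets. RMA (background adjustment, normalization between arrays, summary per probe set) made them, per the submitters' processing notes, with no version given. Tests omitted the 57 probe sets of Affymetrix controls. Of the other 31042, 20826 had 1 gene symbol, 436 had several and 9780 none in the platform annotation, and for 20758 the current symbol came from the RefSeq table of assembly GRCr8 by gene identifier. No 2 arrays were identical (correlations 0.987 to 0.995).

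Tests used limma 3.58.1 in R 4.3.3 (lmFit, eBayes, HMB minus control, no filter or covariate), with Benjamini-Hochberg adjustment over 14217 genes. Intervals are 95% from that fit and unadjusted. In simulated data of 14217 genes for this comparison 58% of changes of 0.5 and 93% of changes of 1 (log2) were recovered. The simulated noise was independent between genes and had the same spread in both groups. Effects shared by a whole array were not simulated, so recovery in the real arrays may differ.

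The members, substrate groups and lists were chosen with earlier results of these data known, and the promoter motifs and the pair shown after the values were seen. Values in each array are given for members that passed, did not overlap or had the difference farthest from 0 in their substrate group. They are also given for Slc25a13, Slc25a14, Slc25a20 and Slc25a51l1, chosen after their values were seen. Slc25a4, Slc25a24 and Slc25a36 were set beside cell type markers for the order of their control values, once these were seen. Alternatives were other normalizations, filters, priors, array weights, a stricter threshold, another probe set per gene, left-out animals and the poly-A covariate. Figures used matplotlib 3.10.9 in Python 3.11.15.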

Additional observations from a re-analysis of the deposited data

Results flagged for a closer look

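In 4 of 80 groups of 5 animals (40 members, control and HMB) 1 animal stood apart, its gap to the nearest exceeding 0.71 of the group's range. Chance gives about 1 in 20 such groups. Slc25a22 was at 8.64 in control 1, with the other controls from 9.10 to 9.19. Slc25a36 was at 6.01 in control 4, with the others from 5.36 to 5.51, and at 5.76 in HMB 5, with the others from 5.33 to 5.45. Slc25a45 was at 4.26 in control 3, with the others from 4.77 to 4.95.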

How the results depend on the processing

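Under 23 other settings the Slc25a12 difference kept its sign in all 22 that tested it, from -0.61 to -0.37, and its call in 10 (limma adjusted p from 0.0227 to 0.291). It was not tested with the lowest 50% of mean level left out. Members called numbered 0 after cyclic loess, after quantile normalization, with the lowest 50% left out, at an adjusted p of 0.01, without HMB 3 to 5 and with the poly-A covariate, 2 without HMB 1 and 2 (Slc25a1 and Slc25a12), and 0 to 1 with 1 animal left out. Genes called numbered 82 after cyclic loess, 62 after quantile normalization, 156 with the lowest 50% left out, 659 with array weights, 30 with HMB 1 as a control, 704 without HMB 1 and 2, and 0 at an adjusted p of 0.01 (limma, 3538 at an unadjusted p under 0.05), without HMB 3 to 5 (1612) and with the poly-A covariate (1914). With 1 animal left out they ran from 0 (control 2, 3 or 5, or HMB 2, with 2772 to 3434 at an unadjusted p under 0.05) through 1 (HMB 4 or 5), 15 (control 4), 157 (HMB 3) and 353 (HMB 1) to 1014 (control 1). Family probe sets called, 1 in the fit reported, numbered 0 after both normalizations, at 0.01, without HMB 3 to 5 and with the covariate, 2 with array weights or HMB 1 as a control, 6 without HMB 1 and 2, and 0 to 4 with 1 animal left out, 3 without control 1 and 4 without HMB 1. The share of all probe sets called was not computed in these other settings, so these counts cannot be set against it. Members whose groups did not overlap numbered 2 after quantile normalization, 0 with the lowest 50% left out, 3 with the probe set of largest variance, 6 without HMB 3 to 5, 7 without HMB 1 and 2, and 1 to 3 with 1 animal left out, 3 without control 1 or control 3. Of all genes 4.38%, 6.51%, 6.44%, 17.8% and 19.3% did not overlap in the first 5 of these settings, and 13.8% and 7.62% without control 1 and control 3. The members' median log2 difference was 0.035 after cyclic loess, 0.039 after quantile normalization, 0.016 with the covariate, 0.0023 with HMB 1 as a control, and -0.056 to -0.0064 with 1 animal left out. Of the 40 members 17 kept 1 sign in every setting that tested them and 23 turned in at least 1. Of the latter, Slc25a1 turned to 0.021 without HMB 3 to 5 and 0.0035 with the covariate, Slc25a34 to -0.036 without HMB 3 to 5, and Slc25a23 to -0.09 and Slc25a51l1 to 0.45 without HMB 3 to 5. The causes were not tested. No paired analysis was possible because the replicate numbers follow the order of deposition and pair no animals.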

Other observations

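Slc25a51l1 had 4.28, 5.21, 4.72, 4.54 and 5.13 in controls, 5.25 and 5.19 in HMB 1 and HMB 2, and 4.16, 4.19 and 4.14 in HMB 3 to HMB 5. The poly-A signal, given with Slc25a1, separates the same animals. Slc25a51l1 was picked with its values known, and the part of that signal in them was not tested. A pair of probe sets assigned to 2 gene entries of the NAD carrier Slc25a51 was left out of the family, since each is paired with more than 1 entry. They differed by 0.15 and 0.14 (limma adjusted p = 0.459 and 0.441 over probe sets). Another probe set of Slc25a27, chosen after its values were seen, ran from 2.35 to 2.47 in controls and from 2.62 to 2.98 in HMB, a difference of 0.36 ± 0.09 (standard error, 5 animals a group, adjusted p = 0.0573, limma). These signals are low, where the median of all genes also lay above 0. Of 18 further probe sets of the members, 15 had the sign of the chosen one.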
